A study of Mus musculus with 9 samples.

Results

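The 10 genes described here are the transcription factor gene Atf4, 3 genes of the stress response around it (Ddit3, Trib3 and Chac1), 3 enzymes of amino acid synthesis (Asns, Psat1 and Phgdh) and 3 subunits of amino acid transporters (Slc7a11, Slc3a2 and Slc7a5). They were picked by symbol, and all 10 were found among the 22036 genes of the deposited table. RNA was sequenced from microglia, the resident macrophages of the brain, which had been sorted by flow cytometry from female wild-type mice of strain C57BL/6. Young mice were 6 months old, middle-aged mice 15 months and old mice 23 months, with no treatment named for any age. Each age had 3 libraries, and RNA for each library came from 3 pooled mice, so every spread given here is a spread between pools.

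The integrated stress response works through kinases that phosphorylate the initiation factor eIF2 when amino acids run short, unfolded protein builds up in the endoplasmic reticulum, haem is lacking or virus RNA is sensed. General translation then slows while the ATF4 protein is made from its mRNA, and ATF4 switches on genes that make, import and load amino acids. The kinase complex mTORC1, named in the series title, is also known to raise ATF4 output. Much of this control acts on translation, which transcript levels do not show.

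All 10 genes were among the 14955 that passed the filter on low values, a linear value of at least 10 in at least 3 libraries, although Trib3 and Chac1 lay close to it. Values come from the authors' table of normalized expression on a log2 scale and are printed either so or, as linear values, after taking them out of the log. No source used here says how the authors transformed the table, so linear values are levels on the table's own scale and not read counts. Differences in it can be smaller than the fold changes of the authors' deposited DESeq2 tables, for Asns 1.75-fold against 2.40-fold and for Ass1 1.92-fold against 4.07-fold in old against young. The read depth of the libraries is unknown. The libraries carried microglial transcripts at high level, such as Csf1r at a mean of 18.78 and Cx3cr1 at 18.37 on the log2 scale; 12 of 15 listed microglia markers were analysed, and all 12 passed the filter. Neutrophil transcripts were abundant too, with Ngp at a mean of 17.58, and the summed level of 13 neutrophil markers was highest in middle-aged replicate 2, at 1014000 against 222800 to 506400 in the other 8 libraries. Old replicate 3 stood apart on the first principal component, at 29.85 against -14.43 to 5.9. In bulk RNA, fewer cells of a type and less RNA per cell cannot be told apart.

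ATF4 and its C/EBP partners are known to bind a composite DNA element that starts TGATG, here searched as TGATGNAA on both strands from 250 bases before to 50 bases after the transcription start. RefSeq promoters on GRCm38.p6 were matched for 9 of the 10 genes; Slc7a5 was not matched. Asns, Slc7a11 and Chac1 held the element before their start, Slc7a11 with 2 copies on opposite strands, and Trib3 held 1 copy after it. The matches lay 23 to 16 bases before the start in Asns, 66 to 59 and 47 to 40 in Slc7a11 and 193 to 186 in Chac1. No match was found in the windows of Atf4, Ddit3, Psat1, Phgdh or Slc3a2. Of 32851 such windows 3.97% held the element, and 3.45% held it before the start. The 30 bases around the upstream matches are shown for every gene that held one, whatever its level. Capitals mark the element. A match is a description of the sequence and not evidence of binding.
Asns, chr6:7693214-7693243, minus strand: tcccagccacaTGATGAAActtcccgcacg
Slc7a11, chr3:50443651-50443680, minus strand: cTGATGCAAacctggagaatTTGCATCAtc
Chac1, chr2:119351038-119351067, plus strand: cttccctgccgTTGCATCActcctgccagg

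Of the 10 genes, Asns alone passed the test in any comparison of ages, and it rose. Asns encodes asparagine synthetase, which makes asparagine from aspartate and glutamine and is a classic ATF4 target. Slc7a11 was higher at both later ages without passing, and Phgdh was lower at 15 months without passing. Atf4 itself did not pass, and its libraries overlapped between the ages. The plot of values by library shows each gene over the 3 ages.

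**Figure D1:**
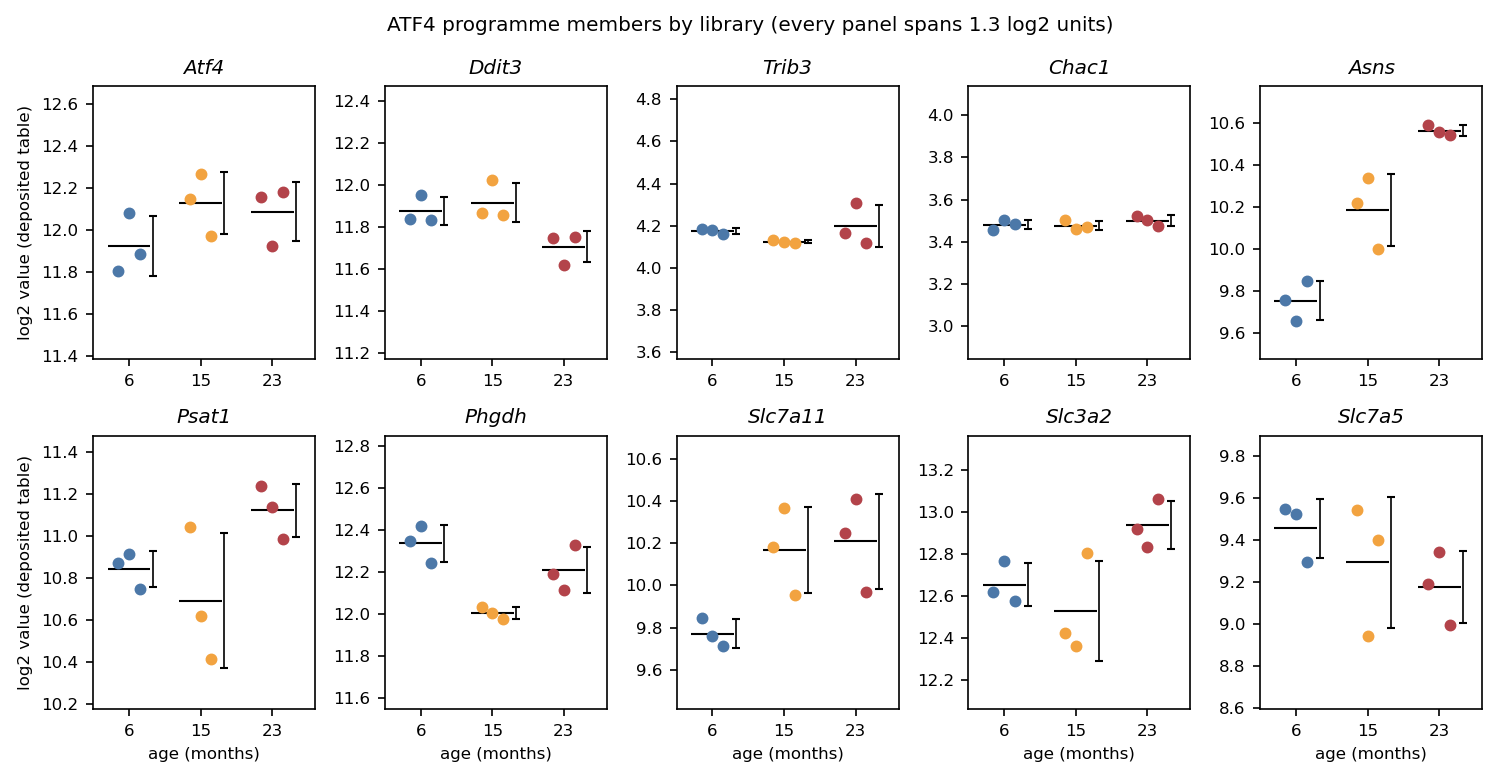
Log2 values of the 10 genes in each of 9 libraries (points), by age in months, with the mean of each age (line) and its SD (bar); every panel spans 1.3 log2 units. Asns libraries of the 3 ages do not overlap, from a mean of 9.75 in young to 10.56 in old libraries. Trib3 and Chac1 hardly vary, but the table compresses their low values strongly, so this is not read as stable expression.

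Atf4, on chromosome 15 at 80255184 to 80257541 (GRCm38, GENCODE annotation), encodes the central transcription factor of the response. Its linear values were 3576, 4333 and 3781 in young replicates 1 to 3, 4539, 4919 and 4006 in middle-aged ones and 4558, 3886 and 4636 in old ones. The ages overlapped throughout, with young replicate 2 inside the range of both later ages. Old minus young was 0.16 ± 0.12 (log2, SE, n = 3 per group), with a 95% interval of -0.097 to 0.421, and adjusted p was 0.523 (limma moderated test, Benjamini-Hochberg over all genes tested). Middle-aged minus young was 0.20 ± 0.12, with adjusted p = 0.575 by limma. From 15 to 23 months the Atf4 difference was -0.04 ± 0.12 (interval -0.3 to 0.218). Changes of Atf4 of the size found for Asns between 6 and 23 months thus lie outside the interval for each pair of ages, although a change of up to 0.42 or 0.46 on the log2 scale does not.

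Ddit3, on chromosome 10 at 127290774 to 127296288, encodes CHOP, a factor known to drive cell death under lasting stress. Its linear values were 3664, 3965 and 3653 in young libraries, 3738, 4159 and 3712 in middle-aged ones and 3436, 3149 and 3454 in old ones. All 3 old libraries lay below the other 6. The size was small: old minus young was -0.17 ± 0.09 (interval -0.37 to 0.033) and old minus middle-aged -0.21 ± 0.09, with limma adjusted p = 0.39 and 0.479. Neither passed, and the authors' deposited table from DESeq2 gave adjusted p = 0.278 and 0.413 for the same pairs. Middle-aged and young libraries overlapped, with a difference of 0.04 ± 0.09.

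Trib3, a pseudokinase gene induced by CHOP and ATF4, and Chac1, a glutathione-degrading enzyme gene, were near the filter. They lie on chromosome 2, at 152337422 to 152344032 and 119351229 to 119354381. Trib3 lay between 4.12 and 4.31 and Chac1 between 3.46 and 3.52 on the log2 scale, in all 9 libraries. That is 17.38 to 19.82 and 10.98 to 11.5 as linear values. Over all genes with a mean linear value of 10 to 20 the median SD within an age was 0.0397, against 0.146 above 1000. In the authors' deposited tables the base mean of Trib3, a mean over the libraries compared, was 11.8 for young with middle-aged, 28.36 for young with old and 16.69 for middle-aged with old. No mean of the linear values could span that range, so the table compresses these 2 genes strongly, and their differences in it, 0.075 at most in size, are not read as folds. In the authors' deposited tables neither gene was called, and the nearest was Trib3 in middle-aged against young libraries (log2 fold change -0.13, DESeq2 adjusted p = 0.184).

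The synthesis enzymes differed from each other. Asns lies on chromosome 6 at 7675169 to 7693254 of GRCm38. Its linear values were 864, 808 and 921 in young replicates 1 to 3, 1190, 1292 and 1023 in middle-aged ones and 1542, 1506 and 1490 in old ones. Every middle-aged library was above every young one and below every old one, and the old libraries were the closest to each other, with an SD of 0.025 against 0.094 and 0.171 on the log2 scale. Asns rose 1.75-fold from 6 to 23 months (log2 0.81 ± 0.11 SE, n = 3 per group, interval 0.57 to 1.05), with adjusted p = 0.00399 by limma with Benjamini-Hochberg adjustment. The authors' deposited table gave a larger fold for this pair, 2.40, with DESeq2 adjusted p = 1.44e-14. At 15 months the difference from young was 0.43 ± 0.11 and from 15 to 23 months 0.38 ± 0.11, and neither passed (limma adjusted p = 0.19 and 0.271). The authors' deposited table called the first of these (log2 fold change 0.58, DESeq2 adjusted p = 0.0153) and not the second (adjusted p = 0.169). Without old replicate 3 the old against young difference was 0.82, and without middle-aged replicate 2 the middle-aged against young difference was 0.35.

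Phgdh and Psat1 encode the first 2 enzymes that turn a glycolytic intermediate into serine. Phgdh lies on chromosome 3 at 98313170 to 98339990 and Psat1 on chromosome 19 at 15904678 to 15947337. Phgdh had linear values of 5213, 5476 and 4851 in young libraries, 4198, 4111 and 4037 in middle-aged ones and 4677, 4436 and 5148 in old ones. The middle-aged libraries were the lowest 3 of the 9. Middle-aged minus young was -0.33 ± 0.09 (interval -0.53 to -0.13, limma adjusted p = 0.222), while the authors' deposited table called Phgdh lower for this pair (log2 fold change -0.44, DESeq2 adjusted p = 0.00434). Old minus young was -0.12 ± 0.09 (limma adjusted p = 0.529), with overlapping libraries. Old libraries were all above middle-aged ones, by 0.21 ± 0.09 (interval 0.004 to 0.407, limma adjusted p = 0.483).

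Psat1 had linear values of 1876, 1928 and 1718 in young libraries, 2111, 1572 and 1364 in middle-aged ones and 2417, 2256 and 2028 in old ones. Middle-aged libraries spanned the widest range, from below all young ones to above them. Old libraries lay above young ones, by 0.28 ± 0.15 (interval -0.055 to 0.609, limma adjusted p = 0.391). Old minus middle-aged was 0.43 ± 0.15 with adjusted p = 0.375 by limma, and libraries overlapped through middle-aged replicate 1, at 2111. Psat1 and Phgdh thus had differences of opposite sign in old against young, 0.28 and -0.12, with both intervals spanning zero.

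Among the transporters, Slc7a11 encodes xCT, the light chain of the exchanger that imports cystine for glutathione synthesis and exports glutamate; the gene lies on chromosome 3 at 49892526 to 50443614. Its linear values were 920, 866 and 838 in young libraries, 1163, 1322 and 994 in middle-aged ones and 1218, 1364 and 1002 in old ones. All 6 later libraries were above the 3 young ones, and the 2 later ages overlapped almost fully. Middle-aged minus young was 0.40 ± 0.14 (interval 0.092 to 0.705) and old minus young 0.44 ± 0.14 (interval 0.133 to 0.746), with limma adjusted p = 0.304 and 0.145. The authors' deposited tables called both higher (log2 fold change 0.54 and 0.64, DESeq2 adjusted p = 0.0347 and 0.0207). These comparisons share the young libraries. Old minus middle-aged was 0.04 ± 0.14 (interval -0.265 to 0.348). Without middle-aged replicate 2, the library highest in neutrophil markers, middle-aged minus young was 0.30, and without old replicate 3 old minus young was 0.56.

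Slc3a2 encodes 4F2hc (CD98), the heavy chain that carries xCT and several other light chains to the cell surface, and lies on chromosome 19 at 8706882 to 8723369. Its linear values were 6282, 6973 and 6093 in young libraries, 5494, 5264 and 7144 in middle-aged ones and 7748, 7281 and 8540 in old ones. The old libraries were the highest 3 of the 9. Old minus middle-aged was 0.41 ± 0.13 (interval 0.13 to 0.684) and old minus young 0.28 ± 0.13 (interval 0.007 to 0.561), with limma adjusted p = 0.307 and 0.284. The authors' deposited tables did not call Slc3a2 for either pair (DESeq2 adjusted p = 0.27 and 0.0868). Middle-aged libraries were the most spread for Slc3a2, since replicate 3 was above all young libraries and the other two below them, and middle-aged minus young was -0.12 ± 0.13 (interval -0.4 to 0.154).

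Slc7a5 encodes LAT1, the light chain best known for leucine import upstream of mTORC1, and lies on chromosome 8 at 121881150 to 121907694. Its linear values were 748, 734 and 628 in young libraries, 744, 492 and 675 in middle-aged ones and 584, 648 and 510 in old ones. The ages overlapped, and old minus young was -0.28 ± 0.16 (interval -0.633 to 0.074, limma adjusted p = 0.421). The lowest value, 492, was that of middle-aged replicate 2. Middle-aged minus young was -0.16 ± 0.16 and old minus middle-aged -0.12 ± 0.16, with limma adjusted p = 0.782 and 0.838. The light chains Slc7a5 and Slc7a11 thus had differences of opposite sign in old against young, -0.28 and 0.44. Within each library, Slc3a2 minus Slc7a5 on the log2 scale was 3.07, 3.25 and 3.28 in young, 2.88, 3.42 and 3.40 in middle-aged and 3.73, 3.49 and 4.07 in old libraries. Old libraries were thus all above the rest, by 0.56 on average over young ones. This pair was set side by side after the values were seen, so the difference is a description.

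**Figure D2:**
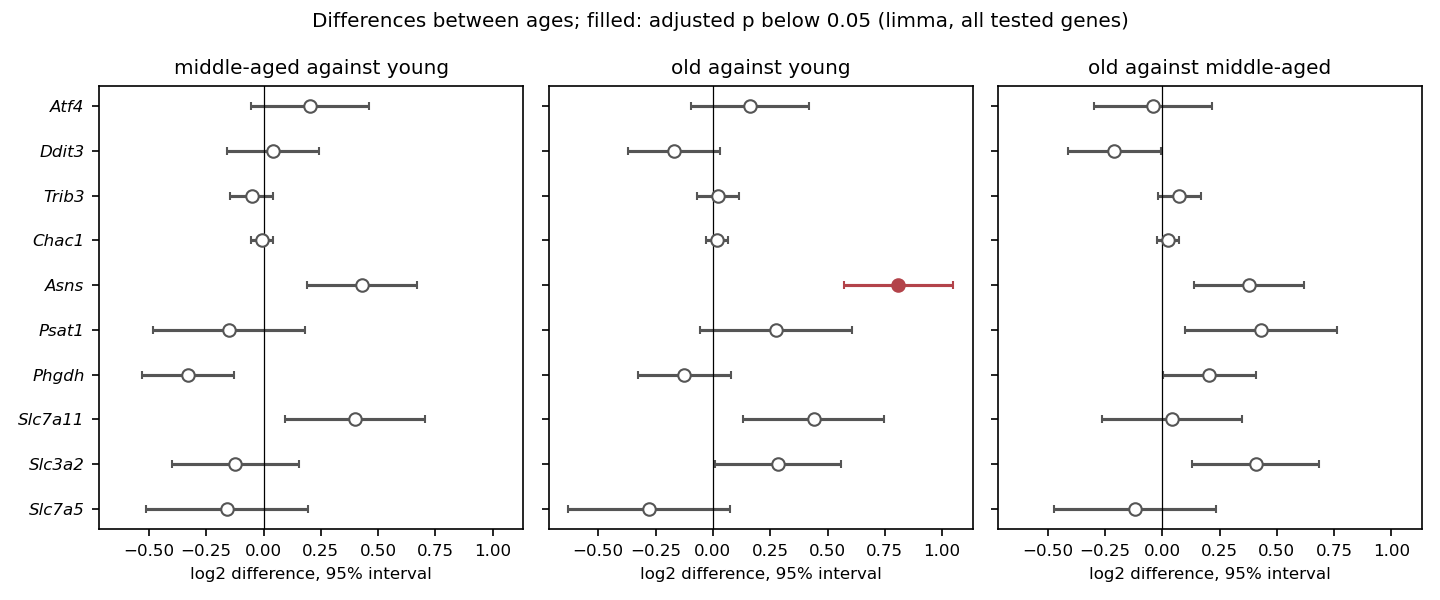
Log2 differences between ages for the 10 genes (points) with 95% intervals from limma (bars), in 3 panels, 1 per comparison; filled points passed adjusted p below 0.05. Asns in old against young, at 0.81, is the filled point, and the narrow intervals of Trib3 and Chac1 belong to compressed low values.

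Counted together in middle-aged against young libraries, 0 of the 10 genes passed the limma test, where 0.114% of all genes did, all of them higher and 0% lower. At an unadjusted p under 0.05 there were 2 higher and 1 lower, where 11.4% of all genes had such a p, 6.21% higher and 5.15% lower. The authors' deposited DESeq2 table called 2 higher (Asns and Slc7a11) and 1 lower (Phgdh) and called 5.78% of all genes, 3.26% higher and 2.53% lower. Libraries of these ages did not overlap for 4 of the 10 genes, 2 higher and 2 lower, against 21.6% of all genes, 11.6% higher and 10% lower.

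In old against young libraries 1 of the 10 passed, Asns, where 2% of all genes did, 1.7% higher and 0.301% lower. At an unadjusted p under 0.05 there were 3 higher (Asns, Slc7a11 and Slc3a2) and 0 lower. Of all genes 16.8% had such a p, 9.07% higher and 7.69% lower. The authors' deposited DESeq2 table called 2 higher (Asns and Slc7a11) and called 7.62% of all genes, 4.72% higher and 2.9% lower. Ages did not overlap for 5 of the 10 genes, 4 higher and Ddit3 lower, against 24.5% of all genes, 12.2% higher and 12.3% lower.

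In old against middle-aged libraries 0 of the 10 passed by limma, where 0.174% of all genes did, 0.16% higher and 0.0134% lower. At an unadjusted p under 0.05 there were 4 higher (Asns, Psat1, Phgdh and Slc3a2) and 1 lower (Ddit3). Of all genes 10.2% had such a p, 5.42% higher and 4.76% lower. The authors' deposited DESeq2 table called 0 of the 10 and 1.32% of all genes, 0.859% higher and 0.466% lower. Ages did not overlap for 4 of the 10 genes, 3 higher and 1 lower, against 12.9% of all genes, 6.47% higher and 6.41% lower. The 3 comparisons share libraries in pairs.

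Over the 3 ages the limma F test passed for Asns (adjusted p = 0.0144) and for 0.836% of all genes; without any 1 young library, or without old replicate 1, it passed for 0 of the 10. The median difference of the 10 genes was -0.029, 0.093 and 0.058 in the 3 comparisons in the order above, against -0.001, -0.009 and -0.004 over all genes tested. With the filter raised to a linear value of 50, which drops Trib3 and Chac1, the medians were 0.22 in old against young and 0.12 in old against middle-aged. Leaving out 1 library moved it to between -0.0373 and -0.0048 in middle-aged against young, 0.0653 and 0.1356 in old against young, and 0.0313 and 0.1304 in old against middle-aged. In middle-aged against young it was nearest zero without middle-aged replicate 2 (-0.0048) or 3 (-0.0075). In old against middle-aged it was 0.0313 without old replicate 2, 0.1067 without middle-aged replicate 2 and 0.1304 without old replicate 3.

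Markers of other cells moved with some of these comparisons. In middle-aged against young libraries, where Asns and Slc7a11 were higher, neutrophil and monocyte markers had medians of 0.504 and 0.5, with 0 called by limma. Summed microglia markers were 2059000 to 2353000 in young, 1740000 to 1994000 in middle-aged and 1671000 to 1947000 in old libraries, and 2 of 12 fell in old against young. Border macrophage markers were lower at both later ages, with sums of 136500 to 145400 in young, 96880 to 120600 in middle-aged and 86320 to 111900 in old libraries. Their medians against young were -0.324 and -0.457, with 0 and 2 of 12 called lower by limma, while the authors' deposited DESeq2 tables called 4 and 7 lower. Of all genes limma called 0% and 0.301% lower in these pairs, the background of the microglia calls too. The authors' deposited tables called 2.53% and 2.9% of all genes lower. Oligodendrocyte sums were 7528 to 10460 in old and 6635 to 7314 in young libraries, and T and NK cell sums 2416 to 2734 and 2109 to 2401, each list with 1 gene called higher by limma. That is 1 of 9 and 1 of 13 tested. Of all genes 1.7% were called higher in old against young, also the background of the monocyte and endothelial calls below. The oligodendrocyte list had a median of 0.051 in old against young, and its Olig1, Olig2 and Sox10 were below the filter. Its highest difference, 1.307, was also that of the pericyte list, and both lists hold Cspg4. In old against young libraries the summed neutrophil level overlapped, at 222800 to 505400 against 273700 to 506400. Monocyte markers had a median log2 difference of 0.45, with 3 of 11 called higher by limma and sums of 48790 to 82480 against 39130 to 56600. Astrocytes are known for serine synthesis, and the summed level of 11 astrocyte markers lay below the young range at both later ages. It was 20880 to 22230 in young, 20230 to 20680 in middle-aged and 16880 to 18760 in old libraries, with 0 of 11 called. Of that sum Slc1a3, which macrophages can also express, was the main part, at a mean of 14.07 on the log2 scale, and Gfap was not analysed here. Endothelial cells of the brain are known for high Slc7a5, and the sum of 12 endothelial markers was 5692 to 6453 in old and 5254 to 6032 in young libraries, with 2 of 11 tested genes called higher. Among neuron markers Rbfox3, Nefm, Slc17a7, Gad1 and Gad2 were below the filter. What part these cells have in the differences was not tested.

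The light chains that pair with Slc3a2 were compared per kilobase of exon, since levels of different genes depend on transcript length. They were chosen after the values were seen. Slc7a8 (LAT2) had a median linear value of 10200 per kilobase over the 9 libraries, Slc7a7 (y+LAT1) 4690, Slc7a6 (y+LAT2) 430, Slc7a5 175, Slc7a11 72 and Slc7a10 5.55, and the heavy chain itself 1980. The lowest library of each of these light chains lay above the highest library of the next, in that order. Slc7a10 lies in the compressed low range, at 5.47 in middle-aged replicates 2 and 3 and old replicates 1 and 3. Its base means in the authors' deposited tables were 8.41 to 16.29, so its value per kilobase is not read as a level. The value for Slc7a11 rests on an exon length of 13922 bases over all annotated forms, the longest of the 7 genes; the form used in these cells was not tested. In middle-aged against young libraries, Slc7a8, Slc7a6 and Slc7a7 had differences of -0.38 ± 0.13, -0.37 ± 0.11 and -0.25 ± 0.08 on the log2 scale. None of them passed (limma adjusted p = 0.302, 0.246 and 0.274), while the authors' deposited table called all 3 lower (DESeq2 adjusted p = 0.00972, 0.0384 and 0.046). These were the 3 called lower there of 21 other transporters, with 0 higher. Of all genes that table called 2.53% lower. Of all 21 other amino acid transporters, 15 were below zero in this pair and 15 in old against young, with 0 called by limma. Over all 14955 genes tested, 7535 and 7867 were below zero. At an unadjusted limma p under 0.05, 4 and 3 of the transporters were lower (19% and 14.3%) and 0 higher. Of all genes, 5.15% and 7.69% were lower at such a p, and 6.21% and 9.07% higher.

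**Figure D3:**
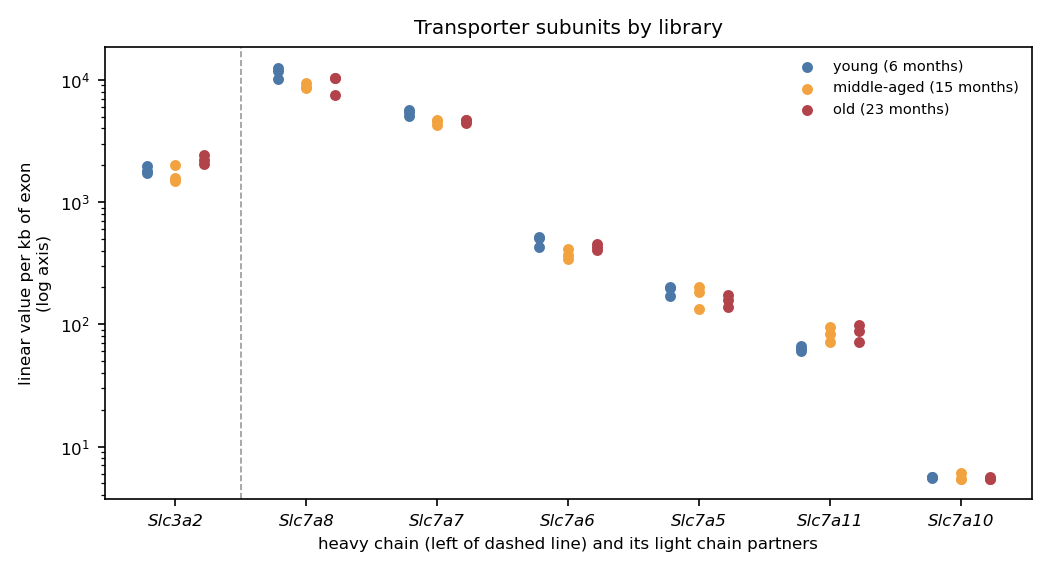
Linear values per kilobase of exon, on a log axis, for the heavy chain Slc3a2 and 6 light chains in each of 9 libraries (points), coloured by age. Slc7a8, with a median of 10200, and Slc7a7, with 4690, lie above Slc7a5 at 175 and Slc7a11 at 72 in every library.

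Other genes of the response were taken from 9 lists with 146 further genes that passed the filter. Of these, 0 were called in middle-aged against young (limma; 13 higher and 12 lower at an unadjusted p under 0.05), 4 rose and 0 fell in old against young, and 0 were called in old against middle-aged (13 higher and 8 lower unadjusted). The unadjusted counts are 8.9% and 8.22% of the 146 in the first pair, where 6.21% and 5.15% of all genes tested were higher and lower. In the third pair they are 8.9% and 5.48%, where all genes had 5.42% and 4.76%. The 4 that rose are 2.74% of the 146, where 1.7% of all genes tested were called higher, so this share of calls is near the background. At an unadjusted p under 0.05, 24 of the 146 were higher and 10 lower in old against young. These are 16.4% and 6.85%, where 9.07% and 7.69% of all genes tested were higher and lower. The authors' deposited DESeq2 tables gave 147, 146 and 147 of the listed genes an adjusted p in the 3 comparisons. They called 6 higher and 9 lower, 8 higher and 2 lower, and 3 higher and 1 lower of these. Of all genes they called 3.26% higher and 2.53% lower, 4.72% and 2.9%, and 0.859% and 0.466%. None of the 27 other ATF4 targets tested passed by limma in any comparison. At an unadjusted p under 0.05 there were 0 higher and 3 lower, 3 higher and 1 lower, and 2 higher and 1 lower. These are 0% and 11.1%, 11.1% and 3.7%, and 7.41% and 3.7% of the targets. Over all genes tested the shares were 6.21% and 5.15%, 9.07% and 7.69%, and 5.42% and 4.76%. The medians of the 27 targets were 0.007, 0.018 and 0.044. Some targets, such as Cth near 13 and Gdf15 near 19 as linear values, lie in the compressed low range of Trib3 and Chac1. From this list the authors' deposited DESeq2 tables called 0 higher and 1 lower, 0 higher and 0 lower, and 2 higher and 0 lower. That is of 28, 27 and 28 targets with an adjusted p there, beside the shares of all genes in those tables given above.

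These 4 are a synthesis enzyme, an antioxidant enzyme and 2 chaperone-type genes. Ass1, encoding argininosuccinate synthetase of arginine synthesis, rose by 0.94 ± 0.11 on the log2 scale (limma adjusted p = 0.00203). Its values were 7.44, 7.42 and 7.50 in young, 7.79, 7.86 and 7.62 in middle-aged and 8.48, 8.53 and 8.17 in old libraries, so the 3 ages did not overlap. The authors' deposited table gave Ass1 a fold of 4.07 for old against young (DESeq2 adjusted p = 7.28e-18). It was the 1 called gene among 17 other amino acid enzymes (5.88%, where 1.7% of all genes tested were called higher).

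Sdf2l1 and Manf, genes of protein folding in the endoplasmic reticulum under the ATF6 and XBP1 arms of the unfolded protein response, rose by 0.63 ± 0.11 and 0.46 ± 0.09 (limma adjusted p = 0.0236 and 0.0379). They were 2 of 21 genes on that list (9.52%, against 1.7% of all genes), which had a median of 0.139 in old against young. At an unadjusted limma p under 0.05, 9 of the 21 were higher (42.9%) and 0 lower, where 9.07% of all genes tested were higher and 7.69% lower. Gpx1, encoding glutathione peroxidase, rose by 0.61 ± 0.12 (limma adjusted p = 0.029), 1 of 14 glutathione and NRF2 target genes. Leaving out any 1 library kept the call of Ass1. Sdf2l1 lost it without young replicate 1 or 3 or old replicate 1 (limma adjusted p up to 0.152), and Gpx1 without any 1 young library or old replicate 1 or 3 (limma adjusted p up to 0.152). Manf kept it without middle-aged replicate 3 or old replicate 2 and lost it without any of the other 7 libraries (limma adjusted p up to 0.199). Fitting the 2 ages alone ended the calls of Sdf2l1, Gpx1 and Manf (limma adjusted p = 0.0697, 0.0759 and 0.0841), and testing without a filter that of Manf (0.0616).

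**Figure D4:**
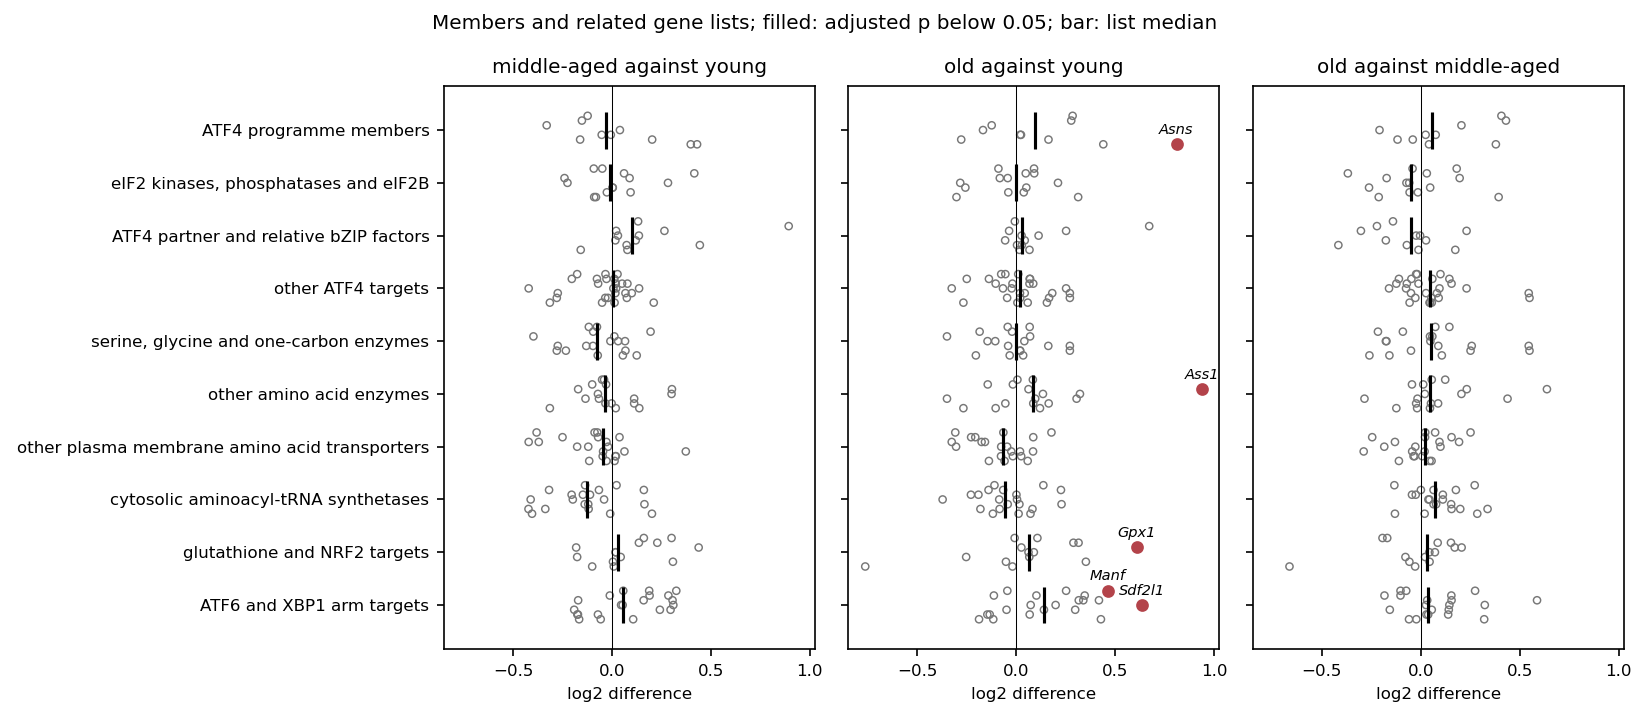
Log2 differences of the 10 genes and of 9 related lists (points, 1 per gene) in 3 comparisons of ages, with list medians (bars); filled points passed adjusted p below 0.05 by limma. Only the old against young panel has filled points, for Asns, Ass1, Gpx1, Sdf2l1 and Manf, and the list medians lie between -0.128 and 0.139.

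The mitochondrial one-carbon gene Aldh1l2 was at 8.90, 9.09 and 8.90 in young, 8.59, 8.73 and 8.73 in middle-aged and 9.14, 9.28 and 9.27 in old libraries, with no overlap between the ages. Its old minus middle-aged difference was 0.55 ± 0.10 (limma adjusted p = 0.0706), and that of Mthfd2, of the same pathway, 0.55 ± 0.11 (limma adjusted p = 0.125). The authors' deposited table called both higher for this pair (DESeq2 adjusted p = 0.000332 and 0.0157).

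Of 20 cytosolic aminoacyl-tRNA synthetases, which load amino acids onto tRNA, 16 were below zero in middle-aged against young and 15 above zero in old against middle-aged; these comparisons share the middle-aged libraries. The list medians were -0.128 and 0.07. None passed by limma, and at an unadjusted p under 0.05 there were 0 higher and 5 lower in the first and 3 higher and 0 lower in the second. The 5 lower are 25% of the list, where 5.15% of all genes tested were lower at such a p. The 3 higher are 15%, where 5.42% of all genes were higher. Of all 14955 genes, 7535 were below zero in the first pair and 7247 above zero in the second. Iars had -0.42 ± 0.09 and Aars -0.40 ± 0.10 at 15 months (limma adjusted p = 0.117 and 0.171). For middle-aged against young, the authors' deposited table called Iars, Lars, Aars and Yars lower (DESeq2 adjusted p = 3.11e-07, 1.11e-05, 0.00364 and 0.00861). They were the 4 of 20 synthetases called lower there, with 0 higher. Of all genes that table called 2.53% lower and 3.26% higher.

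Upstream, of 14 genes for eIF2 kinases, phosphatase subunits and eIF2B, 0 were called by limma in each comparison. At an unadjusted p under 0.05, 2 were higher and 0 lower, 2 higher and 1 lower, and 1 higher and 1 lower. These are 14.3% and 0%, 14.3% and 7.14%, and 7.14% and 7.14% of the 14. Over all genes tested the shares were 6.21% and 5.15%, 9.07% and 7.69%, and 5.42% and 4.76%. Of the 14, the authors' deposited DESeq2 tables called 1 higher (Impact, an inhibitor of the amino acid-sensing kinase GCN2), 1 higher (Eif2ak1) and 1 lower (Ppp1r15a) in the 3 comparisons. Of all genes they called 3.26% higher, 4.72% higher and 0.466% lower in the same order. Ppp1r15a, encoding GADD34, the stress-induced subunit that reverses eIF2 phosphorylation, was at 13.19, 13.63 and 13.66 in young, 13.91, 13.96 and 13.85 in middle-aged and 13.47, 13.54 and 13.61 in old libraries. Middle-aged minus young was 0.42 ± 0.12 and old minus middle-aged -0.37 ± 0.12 (limma adjusted p = 0.242 and 0.352), and the authors' deposited table called the second lower (DESeq2 adjusted p = 0.002). Eif2ak1, the kinase that answers haem shortage, had 0.31 ± 0.12 in old against young and 0.39 ± 0.12 in old against middle-aged libraries (limma adjusted p = 0.229 and 0.313). The authors' deposited table called Eif2ak1 higher in old against young (log2 fold change 0.48, DESeq2 adjusted p = 0.0398) and not in old against middle-aged (adjusted p = 0.326).

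Cebpb, a C/EBP factor that can dimerise with ATF4, was the highest of 12 related bZIP genes in difference, with 0.89 ± 0.17 at 15 months and 0.67 ± 0.17 at 23 months against young. Its values were 8.71, 8.75 and 8.74 in young, 9.43, 9.95 and 9.50 in middle-aged and 9.42, 9.11 and 9.69 in old libraries, so all later libraries were above the young ones. Limma did not call it (adjusted p = 0.0911 and 0.0722), and the authors' deposited tables did (folds of 2.30 and 2.05, DESeq2 adjusted p = 1.49e-08 and 0.000174). Monocyte markers had medians of 0.5 and 0.447 in these pairs. Atf3 had 0.44 ± 0.16 at 15 months, and Atf3 and Cebpa had -0.42 ± 0.16 and -0.30 ± 0.12 in old against middle-aged libraries (limma adjusted p = 0.324, 0.432 and 0.44). Immediate early genes, which respond to stimuli and to cell handling, were higher beside these: their summed level was 590400 to 747600 in middle-aged, 439700 to 572900 in young and 472200 to 528800 in old libraries. All 20 tested had a difference above zero at 15 months, 0 were called by limma and 14 had an unadjusted p under 0.05. That is 70% of them, where 6.21% of all genes tested were higher at such a p. In old against middle-aged, 2 of these 20 fell by limma, where 0.0134% of all genes did, and their median was -0.437. The authors' deposited DESeq2 tables called 8 of the 20 higher in middle-aged against young and 7 lower in old against middle-aged. Of all genes those tables called 3.26% higher in the first of these pairs and 0.466% lower in the second. The part of the immediate early genes in these differences was not tested.

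Genes with the course most like a given one were taken as those with the smallest root mean square difference after centring each gene on its mean, over 9 libraries and 10770 other genes. For Asns they were Prdx1 at 0.0895, Oas1a at 0.0927 and the unnamed gene AW112010 at 0.0971 on the log2 scale, against a median of 0.38 over the genes searched. For Atf4 they were Syf2 at 0.056, Atp6v0b at 0.0621 and Rnf181 at 0.0629, against a median of 0.216; Atf4 itself varied by 0.147 about its mean and Asns by 0.343.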

How the data were processed

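RNA came from sorted microglia pooled from 3 mice per library, with library kits made for small amounts of RNA, per the labels' protocols. Per the submitters' processing notes, mm10 was the build, and CASAVA, cutadapt (1.13), STAR (2.5.3) and DESeq2 (1.16.1) were used. Counter, annotation, sort gate and transformation were not given in the sources used here. Deposited by the authors were log2 values of normalized expression per library, and tables for each pair of ages with a log2 fold change, its p-value before and after adjustment, a mean signal (base mean) and, as scores, a standard error and a statistic, per the file headers.

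The planned log2(value + 1) was not needed because values are already log2. Genes with a linear value of at least 10 (log2 3.32) in at least 3 libraries were tested, 14955 of 22036, in limma 3.58.1 (R 4.3.3) with age as the group, a variance trend and Benjamini-Hochberg adjustment at 0.05; the fit was tested on simulated data. Read depth is unknown, so no count test was run. The members and lists were chosen with earlier results of these data known. All 10 members are named; genes of other lists are named if called or among the 2 with the smallest p in a comparison. Exceptions, chosen after their values were seen, are Slc7a8, the other light chains per kilobase, Yars and, at 15 months, Lars. Coordinates and exon lengths are from GENCODE M21 (GRCm38, the same build as mm10). Each alternative changed 1 choice: the pseudocount, the filter, the scaling, the variance trend or weights per library, a block for replicate number, fitting 2 ages only, or omitting a library. Figures used matplotlib 3.10.9.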

Additional observations from a re-analysis of the deposited data

How the results depend on the processing

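Asns kept its call in old against young in all 11 alternatives and in all 9 fits without 1 library, at 0.762 to 0.856 (adjusted p 0.000299 to 0.0281). Library weights, which ranged from 0.241 for old replicate 3 to 3.99 for young replicate 3, gave 1 called member in middle-aged against young (Asns), 3 in old against young (with Psat1 and Slc7a11) and 2 by the F test; the replicate block gave 0 by the F test, and no other alternative moved the count of members. Leaving out a library left 0 members called in middle-aged against young and in old against middle-aged, 1 in old against young and 0 to 1 by the F test.

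Over all genes, 17 were called in middle-aged against young, 299 in old against young and 26 in old against middle-aged. No filter gave 10, 170 and 9; library weights 312, 1609 and 62; the replicate block 11, 185 and 14. A filter at 50 gave 29 in the first and 47 in the third and could not test Trib3 and Chac1. Fits of 2 ages alone gave 153 in the second and 0 in the third, and no variance trend 3 in the third. Without 1 library the counts were 4 to 49, 83 to 322 and 3 to 23; the first was 4 without any 1 young library and 49 without old replicate 3, and the second 83 without young replicate 3 and 86 without young replicate 1. Deviations correlated above 0.1 in 3 of 9 same-numbered pairs of libraries, with correlations from -0.242 to 0.234. Among 18 differently numbered pairs 2 were above 0.1, with correlations from -0.437 to 0.421. So few values cannot show whether equal replicate numbers pair the libraries.

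The sign changed in 10 of 594 refits of members, each time by leaving out 1 library and none called. Over those fits the ranges in middle-aged against young were -0.0127 to 0.0788 for Ddit3, -0.0186 to 0.0056 for Chac1 and -0.2838 to 0.015 for Slc7a5. In old against young Trib3 ranged from -0.0327 to 0.0621. In old against middle-aged the ranges were -0.1205 to 0.0397 for Atf4, -0.065 to 0.1623 for Slc7a11 and -0.2943 to 0.0045 for Slc7a5. Refits of other genes numbered 1040, of those that the naming rule took from other lists and of Slc7a8 and Yars. Of these refits 22 lost a call and 19 gained one, 13 of the latter under library weights. In old against young the replicate block ended the calls of Sdf2l1, Gpx1 and Manf (adjusted p 0.0535, 0.0548 and 0.075), as did fitting the 2 ages alone. The cause was not tested.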
